A study of Homo sapiens with 8 samples.

Results

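Of the long noncoding RNAs MALAT1, NEAT1, GAS5, TUG1 and H19, those with a named probe were read in CSCs and in cisplatin-resistant cells, each against the parental lung cancer line. MALAT1 was higher than in H460 cells on all arrays of both populations, GAS5 was lower on all of them, and H19 was not well above background in any population. The members were the probes whose accession belongs to one of these genes in the RefSeq gene table. These were 6 of the 41000 probes of the array, for 3 of the 5 genes. No accession on the array matched NEAT1 or TUG1 in that table, so these genes are not analysed here. The table lists current accessions only, and whether the array holds NEAT1 or TUG1 under an older accession was not determined. The array's probes matched 16557 gene symbols in all.

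H460 is a human non-small cell lung cancer (NSCLC) cell line. H460C cells were cancer stem cells (CSCs) that grew as non-adherent spheres from H460 cells in serum-free medium with EGF and FGF-b. H460R cells had survived 0.5 μg/mL of cisplatin, a platinum drug that crosslinks DNA, for 72 hours and were then cultured without the drug in serum medium, as H460 cells were. All populations came from the same line, so sphere growth and medium cannot be told apart in H460C. Each of the 8 dual-color arrays compared H460C or H460R with H460 cells, from 2 RNA samples per population, and the 2 arrays of a sample had the dyes (Cy3 and Cy5) swapped. The labels name 1 H460 RNA sample, so its own spread is in no value. The H460C samples differed by less than the hybridization noise. The replicate differences seen on Cy3 arrays and on Cy5 arrays correlated at r = 0.02 over 24642 probes in H460C, and at r = 0.21 over 25713 probes in H460R. H460C was therefore counted as 1 sample with no SD, and H460R values are given as mean ± SD (n = 2).

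Long noncoding RNAs are transcripts that are not translated into protein. MALAT1 is an abundant nuclear RNA of splicing speckles, and NEAT1 is the scaffold of the paraspeckles, nuclear bodies built with RNA-binding proteins. GAS5 is a host gene of small nucleolar RNAs (snoRNAs), which lie in its introns, and its spliced transcript is degraded by nonsense-mediated decay when it is translated. TUG1 is a widely expressed RNA, and H19 is an imprinted RNA expressed from the maternal allele, with the growth factor gene IGF2 as its neighbor. MALAT1 is known in this tissue as a marker of metastasis in early-stage lung adenocarcinoma.

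In GRCh38.p14, RefSeq places MALAT1 at chr11:65497738-65506516 and NEAT1 at chr11:65422798-65445540, with 52197 bases between them. GAS5 lies at chr1:173863901-173869045, TUG1 at chr22:30969265-30979395 and H19 at chr11:1995176-2001266. The antisense RNA TALAM1 overlaps 7205 bases of MALAT1, and GAS5-AS1 overlaps 41 bases of GAS5. The sequences of the array probes were not used here, so neither the part of an RNA that a probe reads nor its strand is given.

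RefSeq gives MALAT1 a pair of start sites, 1307 bases apart. Their windows (250 bases before the start to 50 after it) and that of GAS5 are shown because these RNAs lay on opposite sides of H460 in both populations. The motifs searched on both strands were TATAAA (a core promoter element), CCAAT, GCGNGGGCG (EGR family), TGANTCA (AP-1) and TGACGTCA (CREB family), none of which overlapped another in these windows. Capitals mark the matches.
MALAT1, first start, chr11:65497488-65497787, plus strand: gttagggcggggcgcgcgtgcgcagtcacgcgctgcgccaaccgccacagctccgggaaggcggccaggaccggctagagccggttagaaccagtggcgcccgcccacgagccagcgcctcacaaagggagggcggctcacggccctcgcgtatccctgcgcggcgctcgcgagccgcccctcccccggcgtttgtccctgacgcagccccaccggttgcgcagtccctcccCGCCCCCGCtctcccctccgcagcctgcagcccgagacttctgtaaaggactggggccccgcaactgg
MALAT1, second start, chr11:65498795-65499094, plus strand: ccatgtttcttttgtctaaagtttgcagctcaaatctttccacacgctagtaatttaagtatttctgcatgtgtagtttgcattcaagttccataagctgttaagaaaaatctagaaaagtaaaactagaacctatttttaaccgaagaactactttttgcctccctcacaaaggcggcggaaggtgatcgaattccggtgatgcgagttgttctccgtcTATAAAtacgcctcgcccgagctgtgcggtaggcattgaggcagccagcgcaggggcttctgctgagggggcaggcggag
GAS5, chr1:173868996-173869295, minus strand: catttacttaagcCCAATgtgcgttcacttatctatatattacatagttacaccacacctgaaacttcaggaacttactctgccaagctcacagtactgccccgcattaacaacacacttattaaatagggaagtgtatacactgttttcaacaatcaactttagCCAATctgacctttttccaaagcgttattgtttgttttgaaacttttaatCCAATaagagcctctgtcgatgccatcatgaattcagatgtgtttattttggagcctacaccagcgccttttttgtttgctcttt
The first MALAT1 window held 1 match to GCGNGGGCG, on the reverse strand, and 9.43% of the 35116 RefSeq windows of this length held one. The second held TATAAA with its first base at -30 from the start, a motif found in 11.5% of all windows. The GAS5 window held 3 CCAAT matches, which 34.6% of all windows had at least once. None of these 3 windows, and neither of those of TUG1 and H19, held TGANTCA or TGACGTCA, which occurred in 7.71% and 1.85% of all windows. These matches describe letters and were not tested as binding sites.

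MALAT1 was read by 4 probes, all well above background in every channel. Values are log2 ratios against H460 cells, taken from the authors' processed table, in which 1 is a 2-fold difference. Probe A_24_P497244 gave the highest ratios. In H460C it read 2.27 and 2.46 for replicate 1 and 2.25 and 2.48 for replicate 2, each time with H460C in Cy3 first and in Cy5 second. In H460R it read 2.97 and 2.89 for replicate 1 and 3.32 and 3.24 for replicate 2, in the same order. All 4 H460R values lay above all 4 H460C values, and all 8 lay far above 0. How many of all kept probes separate in this way is not given here. The mean was 2.365 in H460C, or 5.15-fold over H460, and 3.105 ± 0.25 in H460R, or 8.6-fold. Among the 26014 kept probes this ratio had rank 98 from the top in H460C and rank 5 in H460R. Its spots read 1277 to 3200 intensity units in H460C and 1201 to 4018 in H460R, against 154 to 293.5 in H460 cells over all 8 arrays, with no saturation.

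Probe A_24_P873659 read 0.60 and 0.55 in H460C on the Cy5 arrays of replicates 1 and 2 and 1.71 on the Cy3 array of replicate 2. Its spot on the Cy3 array of replicate 1, with a value of 1.77, was marked as an outlier by the scanner software and left out. In H460R it read 1.96 and 1.36 for replicate 1 and 2.01 and 2.65 for replicate 2, Cy3 first. The groups overlapped through the Cy3 array of H460C. H460C replicate 1 thus rests on its Cy5 array alone, with no swapped partner. The mean of both replicates was 0.865 in H460C, and 1.995 ± 0.47 in H460R (1.82-fold and 3.99-fold over H460). With the marked spot kept, the H460C mean was 1.16 and the probe passed 2-fold there too.

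Probe A_24_P829261 reached the upper limit of the scanner. It was saturated in H460C on 4 of 4 arrays and in H460R on 3 of 4, but in H460 cells on none of 8, where it read 6231 to 33680 units. Its H460C ratios were 1.26 and 0.60 for replicate 1 and 1.24 and 0.48 for replicate 2, and its H460R ratios were 1.58 and 1.76, and 1.43 and 1.03, Cy3 first. The groups overlapped, with the Cy3 arrays of H460C above the lowest H460R array. The ratios are not measured sizes. In the table they averaged 0.895 in H460C (1.86-fold) and 1.45 ± 0.31 in H460R (2.73-fold). From background-corrected intensities with saturated spots at their value, the same ratios came to 2.25-fold in H460C and to 3.55-fold in H460R, where 1 array was unsaturated. The values of a saturated probe thus moved with the normalization, and none of them is a lower bound that holds for both. Only 40 probes of the array were saturated in H460C on all 4 arrays, and 8 of these were saturated in H460 on none.

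Probe A_23_P21143 read 1.19 and 0.27 for H460C replicate 1 and 1.24 and 0.11 for replicate 2, Cy3 first. In H460R it read 1.47 and 0.63 for replicate 1 and 1.84 and 0.25 for replicate 2. The dyes divided these values more than the populations did, and the groups overlapped. The mean was 0.70 in H460C (1.63-fold) and 1.05 ± 0.0035 in H460R (2.07-fold). The small SD arose from dye-swap means that nearly coincided, while single arrays ranged from 0.25 to 1.84.

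**Figure D1:**
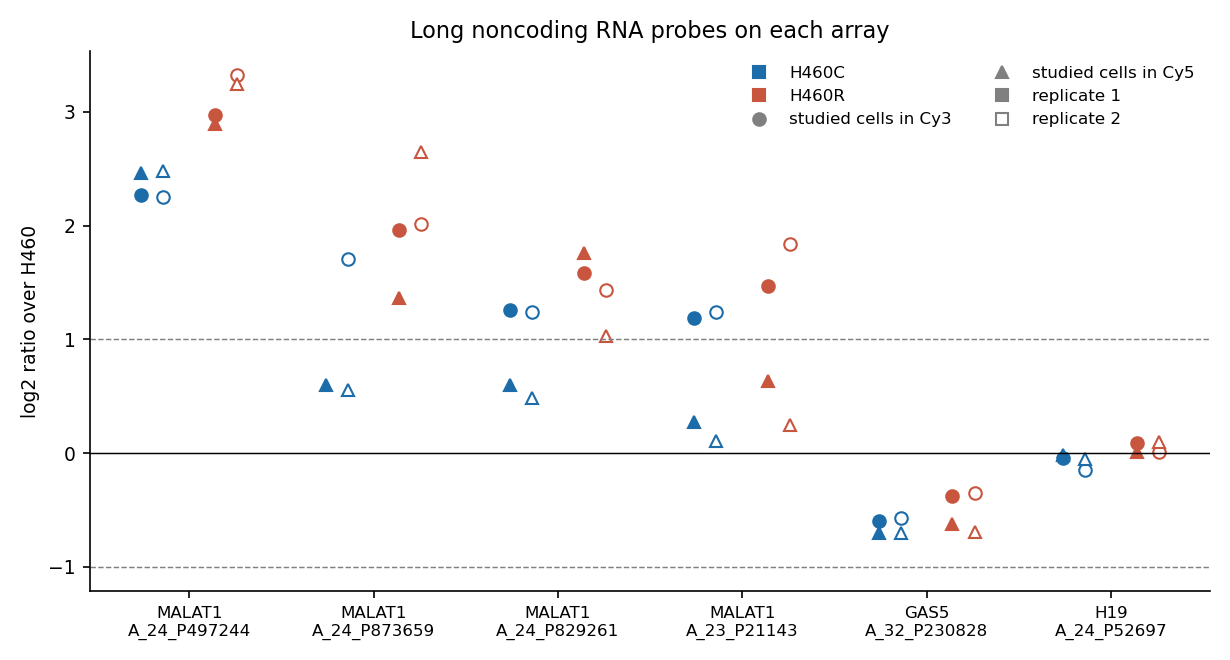
Log2 ratio over H460 (vertical axis) of the 6 member probes on each of the 8 arrays, with H460C in blue and H460R in red, circles for studied cells in Cy3 and triangles for Cy5, filled for replicate 1 and open for replicate 2. Dashed lines mark 2-fold, and the outlier spot of A_24_P873659 is not drawn. MALAT1 lies above 0 on all arrays, GAS5 between -0.70 and -0.35, and H19, which was not above background, near 0.

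The dye moved with several of these values. The Cy3 value minus the Cy5 value of A_23_P21143 averaged 1.02 in H460C and 1.22 in H460R, outside the 95th percentile of its size over all kept probes (0.89 and 0.955). For A_24_P873659 it was 1.14 in H460C and -0.02 in H460R, for A_24_P829261 0.71 and 0.11, and for A_24_P497244 -0.21 and 0.08. The median size over all kept probes was 0.24 in H460C and 0.26 in H460R. The part of the dye in these ratios was not tested. Swapped pairs were averaged, except for A_24_P873659 in H460C replicate 1, which had only its Cy5 array.

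GAS5 had 1 probe, A_32_P230828, well above background in every channel and never saturated. Its log2 ratio was -0.60 and -0.70 for H460C replicate 1 and -0.57 and -0.70 for replicate 2, Cy3 first. In H460R it was -0.38 and -0.62 for replicate 1 and -0.35 and -0.69 for replicate 2. All 8 arrays lay below 0, the groups overlapped, and in both the Cy5 arrays were lower. The mean was -0.64 in H460C, 0.641 of the H460 level, and -0.51 ± 0.014 in H460R, 0.702 of it. Of the kept probes, 90.6% had a higher ratio in H460C and 89.2% in H460R.

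H19 had 1 probe, A_24_P52697, which was well above background in none of 16 channels (8 arrays, both dyes). It read 46 to 85 intensity units in all, with local backgrounds of 22 to 53. No ratio is given for it, and it was left out of the tested probes, so 5 of the 6 member probes were kept.

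**Figure D2:**
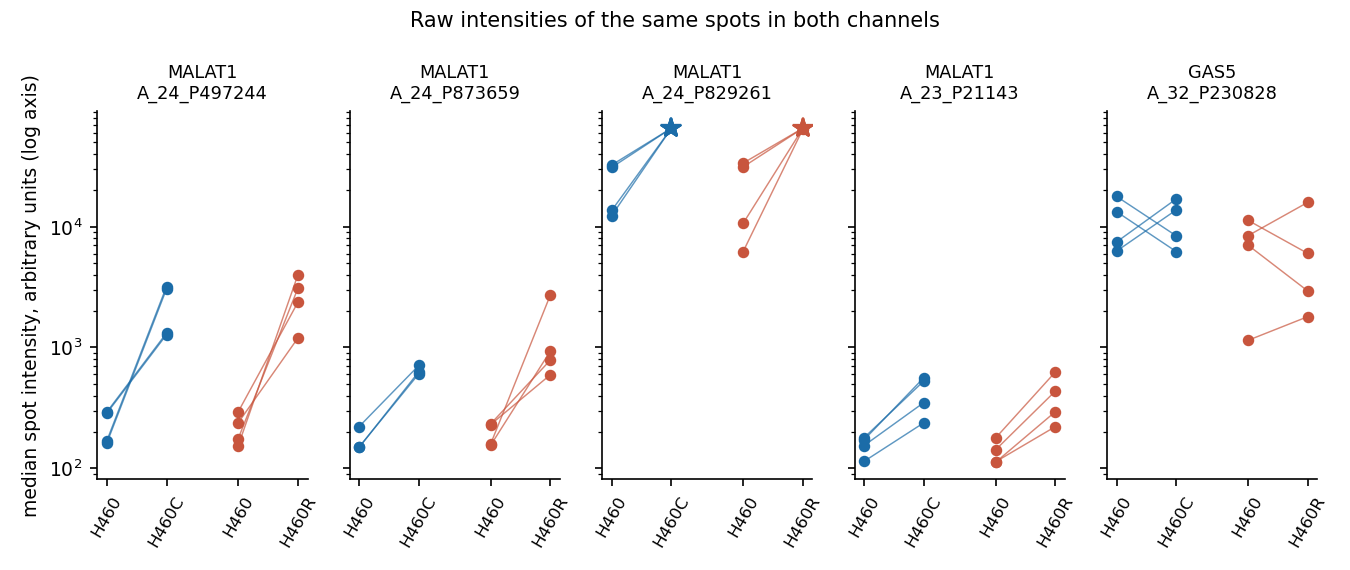
Median spot intensity (log axis, arbitrary units, before any normalization) of the 5 kept member probes, with a line joining the H460 channel to the studied channel of the same array, in blue for H460C and red for H460R. Stars mark saturated spots, and the channels of an array carry different dyes, so a slope is not a fold change. A_24_P829261 alone reaches the upper limit of the scanner, in the studied channels only.

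The first question was which of these RNAs stood apart from H460 cells. With a limit of 2-fold on the mean and 1 sign on all arrays, 1 of the 5 kept member probes passed in H460C, where 7.7% of all kept probes did, and 4 of 5 passed in H460R, where 4.59% did. All that passed were MALAT1 probes and were higher, as were 4.2% of all kept probes in H460C and 2.81% in H460R, while 3.49% and 1.79% were lower. The saturated A_24_P829261, with no measured size, was counted as not past 2-fold in H460C. With the scanner software's own ratios 4 passed in H460C, but the share of all kept probes with those ratios is not given here. The genes had been chosen by name with their log2 ratios in these contrasts known, and the 4 MALAT1 probes share a target, so these counts are a description without a test.

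The second question was whether the populations differed from each other. For MALAT1, 2 of the 4 probes passed the test, with lower ratios in H460C than in H460R. The difference of log2 ratios (H460C minus H460R), in which the H460 RNA cancels, was tested with limma and Benjamini-Hochberg adjustment over all 26014 probes. H460C entered as 1 sample, so the spread came from the 2 H460R samples and from all probes, and H460C was assumed to vary like H460R. By A_24_P497244 it was -0.74 (SE 0.18, adjusted p = 0.0465), which places H460R 1.67-fold above H460C. By A_23_P21143 it was -0.345 (SE 0.067, adjusted p = 0.0312), or 1.27-fold, with the small spread between dye-swap means given above.

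For A_24_P873659 the difference was -1.13 (SE 0.32), which did not pass (adjusted p = 0.0658). It was -0.84 with the marked spot kept (adjusted p = 0.118), and passed with normexp and loess at -1.2 (adjusted p = 0.00849). For the saturated A_24_P829261 it was -0.555 (SE 0.21, adjusted p = 0.125), with no measured size. For GAS5 it was -0.13 (SE 0.068, adjusted p = 0.207), so a difference between the populations was not shown. In all, 2 of 5 member probes passed, both higher in H460R, where 39.4% of all kept probes passed, 19.8% higher in H460R and 19.6% higher in H460C. The member share was thus close to that of all probes. The fit had 1 residual and 2.51 prior degrees of freedom. Neither MALAT1 call held on the Cy3 arrays alone (adjusted p = 0.074 for A_24_P497244 and 0.22 for A_23_P21143), and both were also lost with the scanner software's own ratios. With the H460C replicates taken as 2 samples, all 5 passed, GAS5 at -0.13 included. In that setting 16608 of all 26014 kept probes passed, so a pass was common there.

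**Figure D3:**
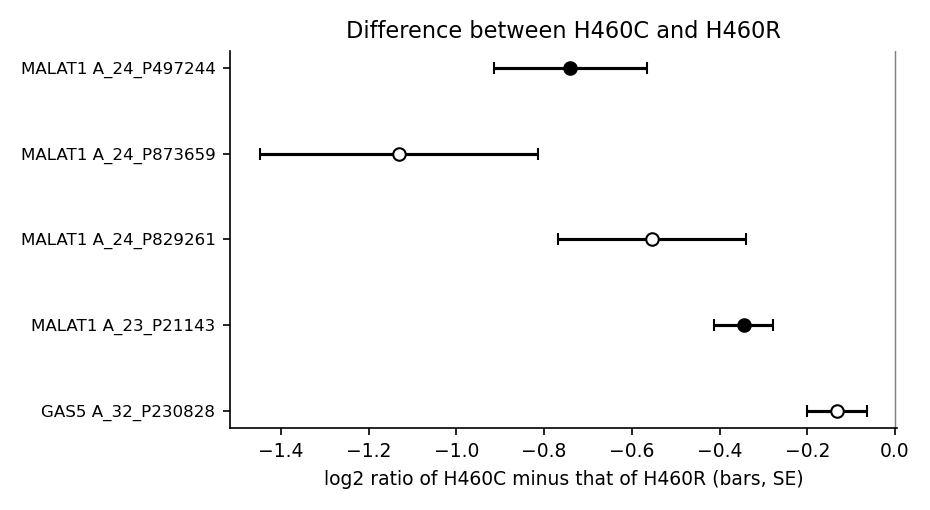
Log2 ratio of H460C minus that of H460R (horizontal axis) for the 5 kept member probes, with bars of 1 SE and filled points where the adjusted p was under 0.05. All 5 points lie below 0, from -1.13 to -0.13, and 2 MALAT1 probes are filled.

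The RefSeq table gives 62 probes of the array to genes of the lncRNA class, of which 28 were kept. Without the members, 23 kept probes of 20 genes remained, and none of these was past 2-fold higher in either population. Their median log2 ratio was -0.04 in H460C and -0.02 in H460R, against -0.03 and -0.03 over all kept probes. HAR1A, a brain-expressed RNA, was past 2-fold lower in H460C (-1.57 against -0.33 ± 0.16 in H460R, adjusted p of the difference = 0.00987). SNHG1, a snoRNA host like GAS5, was past 2-fold lower in both. LINC01089 read -0.41 in H460C and 0.84 ± 0.18 in H460R (adjusted p = 0.0113), and the antisense RNA MCM3AP-AS1 read 0.87 and -0.3 ± 0.11 by its probe A_24_P117301 (adjusted p = 0.00757). HAR1A, LINC01089 and MCM3AP-AS1 were named after their values were seen.

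A further 45 probes carry a noncoding RefSeq accession (NR) without a symbol in the table, and 31 of them were kept. Any of these accessions could be an older one of a named gene, NEAT1 and TUG1 included, so the RNAs behind them are given by accession only. The most different of these, picked after its values were seen, was the probe for NR_002802. It read 0.18, -0.09, 0.07 and -0.10 on the H460C arrays, in the order used above, and 2.17, 2.09, 2.34 and 2.49 on the H460R arrays. The H460C values lay around 0 and the H460R values all lay above 2. The mean was 0.015 in H460C and 2.27 ± 0.2 in H460R, with a difference of -2.26 (SE 0.15, limma adjusted p = 0.00582), and the ratio in H460R passed Rank Products at an FDR of 0.00609. NR_002729 had the same order, with 0.03 in H460C and 1.26 ± 0.035 in H460R (adjusted p = 0.00515). NR_002603 was past 2-fold higher in both populations (1.32 and 1.53 ± 0.12) by 1 of its 4 kept probes.

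**Figure D4:**
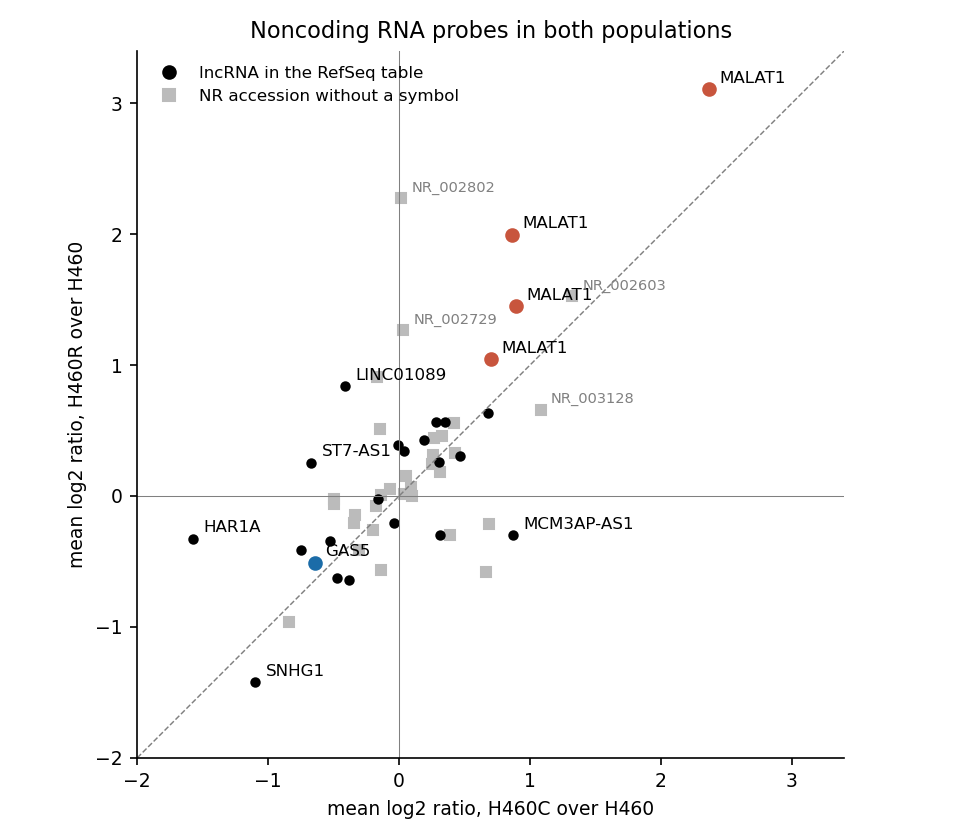
Mean log2 ratio in H460C (horizontal axis) against H460R (vertical axis) of each kept probe of lncRNA genes (circles, MALAT1 in red and GAS5 in blue) and of NR accessions without a symbol (grey squares), with the line of equal ratios dashed and Y-linked and X-inactivation genes left out. All 4 MALAT1 probes lie above the dashed line, and NR_002802 lies near 0 in H460C and at 2.27 in H460R.

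The genes whose 8 array values lay closest to those of A_24_P497244, the brightest unsaturated MALAT1 probe, were taken among 11647 genes by the root mean square (RMS) difference of log2 ratios. The closest was FOS, a subunit of the AP-1 transcription factor (RMS 0.50), with 1.84 in H460C and 2.71 ± 0.0071 in H460R. TP53INP1, a p53-induced gene (0.58), read 1.99 and 2.43 ± 0.032. ADM, the hormone adrenomedullin (0.61), read 2.44 and 2.32 ± 0.069. GLIPR1 (0.64) read 2.1 and 2.33 ± 0.071, and HES1, a Notch target and transcriptional repressor (0.65), read 1.51 and 2.99 ± 0.1. These 5 genes are among 95 of the compared genes that were past 2-fold higher in both populations, and the RMS is a description of nearness over 8 arrays that share 1 H460 RNA. The other MALAT1 probes were not among the compared probes. A_24_P873659, A_24_P829261 and A_23_P21143 averaged 0.865, 0.895 and 0.70 in H460C, and 1.995, 1.45 and 1.05 in H460R. The nearness is thus to the ratios of A_24_P497244 and not to those of every MALAT1 probe.

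The other genes of these RNA pathways were read from lists of 7 groups, each gene at its brightest probe, with Rank Products against H460 cells at an FDR of 0.05. In H460R, 1 of 86 measured list genes was called, where 0.558% of all 12374 genes were called higher and 0.509% lower. In H460C none was called, where 0.695% were called higher and 0.614% lower, and the H460C replicates entered this test as 2 samples. At an unadjusted p under 0.05, Rank Products gave 22 list genes in H460C and 21 in H460R (21.6% and 17.9% of all genes), and limma on the ratio against 0 gave 52 and 63 (56.6% and 66.7% of all genes).

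The called gene was SNHG1, the snoRNA host. Its log2 ratio was -1.47 and -1.37 in the H460R replicates (-1.42 ± 0.071, 0.374 of the H460 level, FDR = 0.0361). In H460C it was -1.1, or 0.467 of that level (FDR = 0.225), and the populations did not pass the test against each other (0.32, SE 0.082, adjusted p = 0.0543). Of the 18 snoRNA hosts other than GAS5, 4 were measured, with a median of -0.61 in H460C and -0.52 in H460R against -0.04 over all genes in both. SNHG11 read -0.75 and -0.41 ± 0.12, SNHG5 read -0.48 and -0.63 ± 0.18, and SNHG10 read 0.68 and 0.64 ± 0.064. The SNHG1 call was lost on the Cy5 arrays alone and with the scanner software's ratios. GAS5, at -0.64 and -0.51, lay within the range of these hosts.

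The list of other long noncoding RNAs had 8 genes on the array and 5 kept, with medians of -0.16 and -0.21. MIAT read -0.39 in H460C and -0.64 ± 0.13 in H460R, DLEU1 read -0.53 and -0.35 ± 0.06, and PVT1 read 0.19 and 0.42 ± 0.028. None of the 5 was past 2-fold. Over all genes this limit was passed upward by 5.28% and downward by 4.36% in H460C, and by 2.93% and 1.62% in H460R.

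Paraspeckle proteins, which bind NEAT1, had a median of 0.18 in H460C and -0.34 in H460R over 18 genes, with none past 2-fold at its brightest probe. Between the populations 10 of the 18 were higher in H460C by limma and 0 were higher in H460R, where 22.4% and 21.8% of all genes were. NONO, a core paraspeckle protein, read -0.60 and -0.78 ± 0.071, and its other probe, A_24_P413437, read -0.86 and -1.19, past 2-fold lower in H460R. HNRNPA1 read -0.075 and -0.88 ± 0.51, and its probe A_32_P189803 read -0.18 and -1.02, also past 2-fold lower in H460R. HNRNPK read -0.36 and -0.73 ± 0.0035, and its other probe read -0.16 and -0.29. SMARCA4, a chromatin remodeling ATPase, read 0.93 and 0.2 ± 0.035 (adjusted p = 0.00953), while its other probes read -0.09 and 0.03, and -0.13 and 0.01. TAF15 read 0.41 and 0.46 ± 0.14.

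SR splicing factors, the proteins of the nuclear speckles where MALAT1 resides, had a median of 0.49 in H460C and -0.03 in H460R over 15 genes. Between the populations 8 of 15 were higher in H460C and 0 were higher in H460R (22.4% and 21.8% of all genes). SRSF7 was the only 1 past 2-fold, at 1.13 in H460C and -0.26 ± 0.11 in H460R. Its other probe was not past 2-fold, with 0.23 and -0.31. SRSF9 read 0.07 and -0.55 ± 0.014 (adjusted p = 0.0112), and SRSF6 read -0.18 and -0.17 ± 0.13. SRRM1 read 0.75 and 0.6 ± 0.057, with 1.14 and 0.47 at its probe A_24_P264192, and SRSF10 read 0.88 and 0.23 ± 0.23 (adjusted p = 0.0534).

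Factors of nonsense-mediated decay, the pathway that degrades GAS5, had medians of -0.01 and -0.29 over 14 genes, with 6 higher in H460C and 0 higher in H460R (22.4% and 21.8% of all genes). SMG1, the kinase that phosphorylates the helicase UPF1, read 0.62 and 1.01 ± 0.17 and was past 2-fold in H460R by this probe. Its other kept probes read 0.0025 to 0.85 in H460R. The endonuclease SMG6 read 0.85 and 0.73 ± 0.053, but -0.06 and 0.08 at its other probe. CASC3, of the exon junction complex, read -0.36 and -0.81 ± 0.0071. Its other probes lay closer together, at -0.59 and -0.735, and at -0.17 and -0.22. UPF3A read -0.55 and -0.56 ± 0.021.

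The genes that flank NEAT1 and MALAT1 on chromosome 11 had medians of 0.155 and -0.145 over 13 genes. FRMD8, the neighbor on the NEAT1 side, read 1.38 in H460C and 0.31 ± 0.067 in H460R (adjusted p = 0.00685). LTBP3, which binds latent TGF-beta, read -1.39 and -0.68 ± 0.032 (adjusted p = 0.00975), while its other probe read -0.13 and -0.1. CDC42EP2 read -0.89 and -1.07 ± 0.011, and POLA2, a subunit of DNA polymerase alpha, read 0.54 and 0.33 ± 0.039. Of the 13, 3 were higher in H460C and 1 in H460R, where 22.4% and 21.8% of all genes were.

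Imprinted genes, including those beside H19, had medians of -0.13 and -0.17 over 17 kept genes, with 6 higher in H460C and 3 higher in H460R (22.4% and 21.8% of all genes). PHLDA2, an imprinted growth inhibitor of the same chromosome 11 cluster, read 1.51 and -0.17 ± 0.049 (adjusted p = 0.0043). PLAGL1, a zinc finger factor, read 1.15 and 0.13 ± 0.081 (adjusted p = 0.00779), with 0.12 and -0.16 at its other probe. The proteoglycan gene DCN read -1.57 and -0.64 ± 0.12 (adjusted p = 0.0112), and NDN read -0.8 and -0.85 ± 0.13. GRB10 was past 2-fold lower in H460R, with 0.18 in H460C and -1.09 ± 0.018 in H460R. Its other probe was not past 2-fold, with 0.395 and -0.705. IGF2, the neighbor of H19, read 0.27 and 0.54 ± 0.11 (adjusted p = 0.12).

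**Figure D5:**
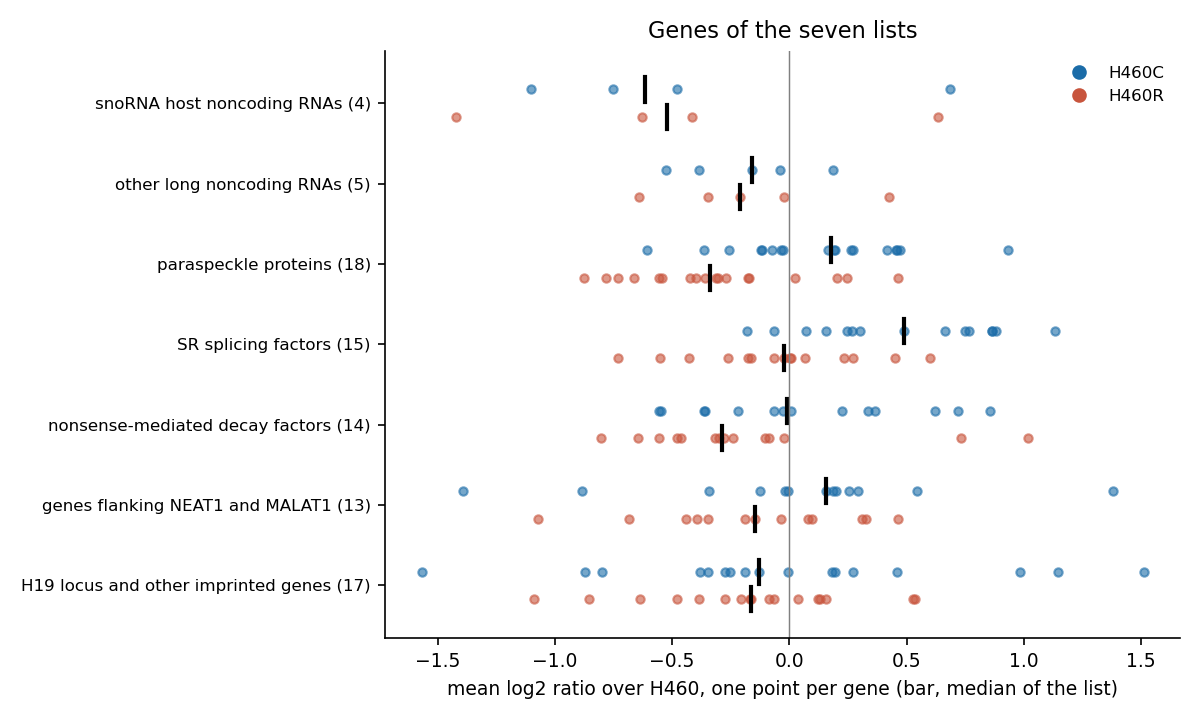
Mean log2 ratio over H460 of each measured gene of the 7 lists (horizontal axis), with H460C in blue above and H460R in red below, the number of genes in parentheses and a black bar at each median. The paraspeckle, SR and nonsense-mediated decay lists have their H460C medians to the right of their H460R medians, by 0.18 against -0.34, 0.49 against -0.03 and -0.01 against -0.29.

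The epithelial markers KRT8, KRT18 and EPCAM were well above background in 14 to 16 of 16 channels. Of the markers of other cell types, PTPRC was above background in 0 channels, PECAM1 in 4, VWF in 0 to 11 and CD3E in 6 to 14 by probe, and no probe matched COL1A1. The studied channels had 25868 to 28499 probes above background, and the H460 channels 22834 to 26966. In RNA from whole populations, fewer cells with an RNA and less of it per cell cannot be told apart.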

How the data were processed

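Total RNA of H460C, H460R and H460 cells was hybridized to 8 dual-color whole human genome arrays. The authors' processed table, which supplied the ratios, holds log2 ratios with H460 cells as the denominator on all arrays, swapped ones included. The submitters' processing notes name limma, and its background correction and normalization are not given in the sources used here. From the scanner files (Feature Extraction 10.1.1.1) came the deposited median intensities, which carry no normalization, and the deposited marks (other values, 0 or 1) for saturation, outliers and signal well above background. The log10 ratio that the authors made with that software, after its own background subtraction and dye normalization, served as an alternative. On 1 array (H460C replicate 1, H460C in Cy3) it had lost its decimal points, and the values were divided by 10 to the power of 9. Columns without a sample numbered 0.

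Outlier spots were set to missing, and spots of 1 probe were averaged (43376 spots, 41000 probes). The filter asked that 0.5 or more of the spots of a probe be well above background in each channel of 1 population or more, which left 26046 probes, and 26014 had all ratios. Each dye-swap pair was averaged, and where 1 array of a pair had no ratio the other was used alone. RefSeq names stood on 25074 probes, and the GRCh38.p14 table gave symbols to 23958 of them. Replicate numbers did not pair the samples of the populations (r = 0.05 between their replicate differences). H460C and H460R were compared with limma 3.58.1 in R 4.3.3 (two-sided), and list genes with Rank Products on 2 ratios (exact null distribution) at an FDR of 0.05. Both were tested on simulated data. The alternative ratios of the saturated probe used normexp (offset 50), loess and Aquantile.

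The members and lists were chosen with earlier results of these data known. Named genes were all member probes, the list genes that passed, otherwise the 2 of a list with the largest mean ratio in each direction over both populations, and the 5 genes nearest to the MALAT1 probe A_24_P497244. Genes outside this rule are named only for a ratio past 2-fold, beside a member on the chromosome or where the text says so. Alternatives were other backgrounds and normalizations, other filters, single dyes, left-out replicates, H460C as 2 samples, the replicate block and other tests. Keeping outlier spots was added after seeing the data. The number of arrays limits the precision.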

Additional observations from a re-analysis of the deposited data

Results flagged for a closer look

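MALAT1 is listed here because 2 of its probes passed the test of H460C against H460R. Of all kept probes 39.4% passed, 19.8% of them all with higher ratios in H460R. The share of member probes that passed was close to this, so passing does not set MALAT1 apart. That test set 1 H460C sample against 2 H460R samples, which alone supplied the spread between samples, and it assumed the same spread in H460C. The 4 arrays of a population are dye-swap repeats of 2 RNA samples. The share of all kept probes whose arrays do not overlap between the populations is not given here. By probe A_24_P497244 the log2 ratio was lower in H460C by -0.74 (H460C minus H460R, limma adjusted p = 0.0465), and all 4 H460R arrays lay above all 4 H460C arrays. Over 15 alternatives this difference lay between -0.915 and -0.565, and in the 13 of these that allowed a test the adjusted p lay between 0.00269 and 1 and missed the threshold in 5. By probe A_23_P21143 the difference was -0.345 (adjusted p = 0.0312), with arrays that overlapped. It lay between -0.44 and -0.25 over 15 alternatives, and in the 13 with a test the adjusted p lay between 0.00156 and 1 and missed the threshold in 4. The adjusted p of 1 came from a test against a minimum log2 difference of 1.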

How the results depend on the processing

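No direction reversed under any alternative run. The 4 MALAT1 probes stayed above H460 and GAS5 below it in both populations, with A_24_P497244 between 2.26 and 3.04 in H460C and between 2.93 and 3.69 in H460R, and GAS5 between -0.70 and -0.54 and between -0.655 and -0.365. The number of member probes past 2-fold in H460C, 1 as reported, was 2 with normexp and loess, 4 with the scanner software's ratios, 3 without background subtraction, 3 on Cy3 arrays alone, 2 with outlier spots kept, and 1 to 2 with an H460C replicate left out (2 without replicate 1). In H460R it was 3 to 4 under all alternatives. On Cy3 arrays alone A_24_P873659 had no value in H460C replicate 1, so it was left out of every count of that setting. The shares of all kept probes past 2-fold under these alternatives are not given here. The number of member probes that differed between the populations, 2 as reported, was 3 with normexp and loess, 0 with the software's ratios, 4 without background subtraction, 1 without a filter on dim probes, 0 on Cy5 and 0 on Cy3 arrays alone, 5 with the H460C replicates as 2 samples (16608 of all probes, against 10258), 0 against a minimum difference of 1 (462 of all probes), and 2 to 3 with an H460C replicate left out. The samples share only a replicate number, and with it as a replicate block, H460C as 2 samples, 4 member probes and 15344 of all probes differed. For the other alternatives the share of all kept probes that differed is not given here. Their counts of member probes therefore cannot be set beside that of all probes. With an H460R replicate left out no residual degree of freedom remained, so the difference is a value without a test, and Rank Products cannot run on 1 ratio. Among list genes, SNHG1 in H460R was called under every alternative of Rank Products except Cy5 arrays alone, which called 0, and the software's ratios, which called 1 other gene, NDN. In H460C the software's ratios called 1, DCN. With limma against 0 the calls were 52 in H460C and 63 in H460R (7008 and 8252 of all genes, against 162 and 132 by Rank Products). The causes of these changes were not tested. Saturation limits A_24_P829261 and background limits H19.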
